A study of Caenorhabditis elegans with 2 samples.

Results

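The gene mnk-1 (WBGene00011304) was examined together with the 10 kb on each side of it. It lies on the minus strand of chromosome II of Caenorhabditis elegans, at 10542421 to 10555044 in build ce11, and spans 12624 bp. All peaks of a ChIP-seq experiment on the transcription factor NHR-11 whose summit, the position of strongest signal within a peak, fell between 10532421 and 10565044 were taken. These were 13 of the 2719 peaks of the authors' thresholded list and 30 of the 13558 peaks of their pooled list. The separate lists of replicate 1 and replicate 2 gave 33 of 19074 peaks and 31 of 22137 peaks. Inside the gene itself lay 6 thresholded and 16 pooled summits, 20 summits of replicate 1 and 17 of replicate 2. The locus was chosen because of its number of peaks in these same lists, so that number is a description of the choice and carries no test.

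MNK kinases are protein kinases that MAP kinases bind and switch on. In mammals the MAP kinases that do so are ERK and p38, and the best known substrate of MNK kinases is eIF4E, the protein that binds the cap of messenger RNA at the start of translation. The C. elegans gene mnk-1 encodes a member of this family. NHR-11 belongs to the nuclear hormone receptors, transcription factors that bind DNA through zinc fingers and, in many members, respond to small lipophilic molecules.

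Chromatin immunoprecipitation and sequencing (ChIP-seq), which recovers DNA attached to a chosen protein, was done on whole L4 larvae, the last larval stage, from a pool of males and females of the strain OP305. Per the labels, the strain carries the allele unc-119(ed3) on chromosome III and the transgene wgIs305, and eGFP-tagged NHR-11 was precipitated, with nhr-11 given as the antibody's target. A single group was analysed, with 2 biological replicates and no second condition. Whether the strain keeps an untagged nhr-11 is not given in the sources used here, and the control experiment named in the labels was not analysed here, so which peaks depend on NHR-11 was not tested. Whole animals were used, so a strong peak in few cells and a weak peak in many cannot be told apart. Peak heights are given as the signal value in the authors' lists, a strength from their peak caller in units that the files do not name. Sequencing depth is unknown, because the lists report peaks without reads.

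The sequences that carry the description are those under the 2 strongest summits inside mnk-1, the strongest in the flanks, the summit in a coding exon and a flanking summit that shares a short pattern with both strong intronic peaks. Each is the plus strand of the RefSeq genome WBcel235, which has the sequence of ce11, over 50 bases on each side of the pooled summit, 5′ to 3′. Since mnk-1 is on the minus strand, its transcription runs from right to left. Capitals mark matches on either strand to the pattern CTNCGTNTC (N is any base), to GAGAGA, to the E-box CACGTG, to the word GGGCGG or to the word TGATAA.
Intron, 94 bp upstream of the start of transcript R166.5a.1, chrII:10548967-10549067: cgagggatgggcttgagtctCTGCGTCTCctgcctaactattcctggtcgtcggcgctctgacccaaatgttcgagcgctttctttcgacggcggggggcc
Intron, 1560 bp downstream of the start of transcript R166.5b.3, chrII:10552092-10552192: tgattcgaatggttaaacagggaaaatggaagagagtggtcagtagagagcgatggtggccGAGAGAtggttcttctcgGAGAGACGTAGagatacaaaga
Coding exon, chrII:10546172-10546272: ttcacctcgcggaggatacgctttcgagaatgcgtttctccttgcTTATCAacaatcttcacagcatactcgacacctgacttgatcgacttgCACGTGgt
Upstream flank, 3503 bp from the gene, chrII:10558497-10558597: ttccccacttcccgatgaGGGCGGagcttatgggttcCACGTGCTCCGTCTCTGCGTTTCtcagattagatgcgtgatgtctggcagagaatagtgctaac
Upstream flank, strongest peak, 181 bp upstream of cdc-48.1, chrII:10563538-10563638: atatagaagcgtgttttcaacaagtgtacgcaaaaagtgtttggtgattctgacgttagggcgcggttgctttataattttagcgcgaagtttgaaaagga

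The 2 strongest peaks inside mnk-1 both lay in its longest intron, and they stood far above the other 4. Introns here are the gaps left between the merged exons of all mnk-1 transcripts, so the intron of a single transcript can be longer. The gap called the long intron here (10548924 to 10553495) covers 4572 bp, 36.2% of the gene. The annotation (Ensembl) gives mnk-1 4 transcripts with 4 separate starts: R166.5b.1 at 10555044, R166.5b.2 at 10554183, R166.5b.3 at 10553702, and R166.5a.1 at 10548923, where the long intron ends. The long intron is thus intronic for the 3 R166.5b transcripts and lies upstream of the start of R166.5a.1. By their exon counts and lengths, the R166.5b transcripts lack the first exon of R166.5a.1 (10548576 to 10548923). Their own intron then runs from 10547663 to 10553495 and also holds the weaker pooled summits at 10547782 and 10548028. The coding sequences are nearly equal in length, at 2115 bp in R166.5a.1 and 2121 bp in each R166.5b transcript.

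The summit at 10549017 lay 94 bp upstream of the start of R166.5a.1. Its signal value was 350.8 in the pooled list, rank 34 of 2719, with 168.3 in replicate 1 (rank 37) and 186.8 in replicate 2 (rank 29). The summit at 10552142, 1560 bp downstream of the start of R166.5b.3, had a pooled signal value of 342.9 (rank 37), with 182.0 in replicate 1 (rank 24) and 156.7 in replicate 2 (rank 55). Both replicates therefore placed these 2 peaks among their 55 strongest, although the replicates gave them in opposite order. The median signal value was 79.9 over the 6 thresholded peaks in mnk-1 and 83.9 over all 2719 thresholded peaks. The remaining thresholded peaks of the gene, at 66.3 to 80.3, all lay below that median of the whole list.

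The third thresholded peak of the long intron, at 10550887, was the weakest of the 6. Its pooled signal value was 66.3 (rank 2021), with 47.6 in replicate 1 and 28.5 in replicate 2. Replicate 2 had 2 summits within this pooled peak, on either side of the pooled summit, at 10551040 with a signal value of 28.5 and, slightly weaker, at 10550759. The stronger of these, used here, lay 153 bp from the pooled summit. The remaining intronic peak, at 10553896, lay in the short gap of 292 bp between merged exons (10553703 to 10553994), 194 bp upstream of the start of R166.5b.3. It had a pooled signal value of 69.5 (rank 1860) and nearly equal replicate values, 35.3 in replicate 1 and 36.7 in replicate 2. The starts of R166.5a.1 and R166.5b.3 thus each had a thresholded summit within 300 bp upstream. Of the 6 thresholded summits in mnk-1, 2 lay that close upstream of a start of the gene, against 14.5% of the 860 thresholded summits inside protein-coding genes. A summit inside a gene can lie so only where the gene has an internal start. The 860 were not limited to such genes and mnk-1 has 4 starts, so the shares are not directly comparable. The gap of 767 bp between merged exons just upstream of the R166.5b.2 start held no summit in any list. By its exon count and length, R166.5b.1 lacks the first exon of R166.5b.2 (10553995 to 10554183). The intron of R166.5b.1 thus spans this gap and the short one, and holds the summit at 10553896. The outermost start, that of R166.5b.1, had only a weak pooled peak 82 bp upstream, at 10555126. Its signal value was 22.7, near the lowest of the pooled list (21.6). Replicate 1 gave it 28.8, and replicate 2 had no summit within it.

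Outside introns, the gene had 1 thresholded summit in a coding exon and 1 in its 3′ UTR. The exonic summit, at 10546222, lay in the exon of 688 bp (10545638 to 10546325), 2701 bp downstream of the start of R166.5a.1. Its signal value was 80.3 in the pooled list, 38.3 in replicate 1 and 40.6 in replicate 2, with all 3 summits within 7 bp of the pooled one. The 3′ UTR summit, at 10543859, had a pooled signal value of 79.6 and was the member on which the replicates differed most by ratio: 58.4 in replicate 1 (rank 759) against 21.1 in replicate 2 (rank 4524). An ncRNA gene, WBGene00014492, overlaps that UTR on the same strand (10542425 to 10544215), and the peak cannot be assigned to either. No thresholded or pooled summit fell in a 5′ UTR, and 1 summit of replicate 1 did, at 10553651 with a signal value of 30.9.

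By position, introns held 4 of the 6 thresholded summits in mnk-1 (66.7%) and 10 of its 16 pooled summits (62.5%). Introns make up 62.2% of the bases of the gene. Over the whole thresholded list, 80.2% of summits inside protein-coding genes were intronic. The summits of mnk-1 were thus divided between introns and exons much as its bases are. The other 6 pooled summits of mnk-1 comprised 4 in coding exons and 2 in the 3′ UTR. Replicate 1 placed 12 of 20 summits in introns, 3 in coding exons, 4 in the 3′ UTR and 1 in a 5′ UTR, and replicate 2 placed 13 of 17 in introns, 2 in coding exons and 2 in the 3′ UTR.

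**Figure D1:**
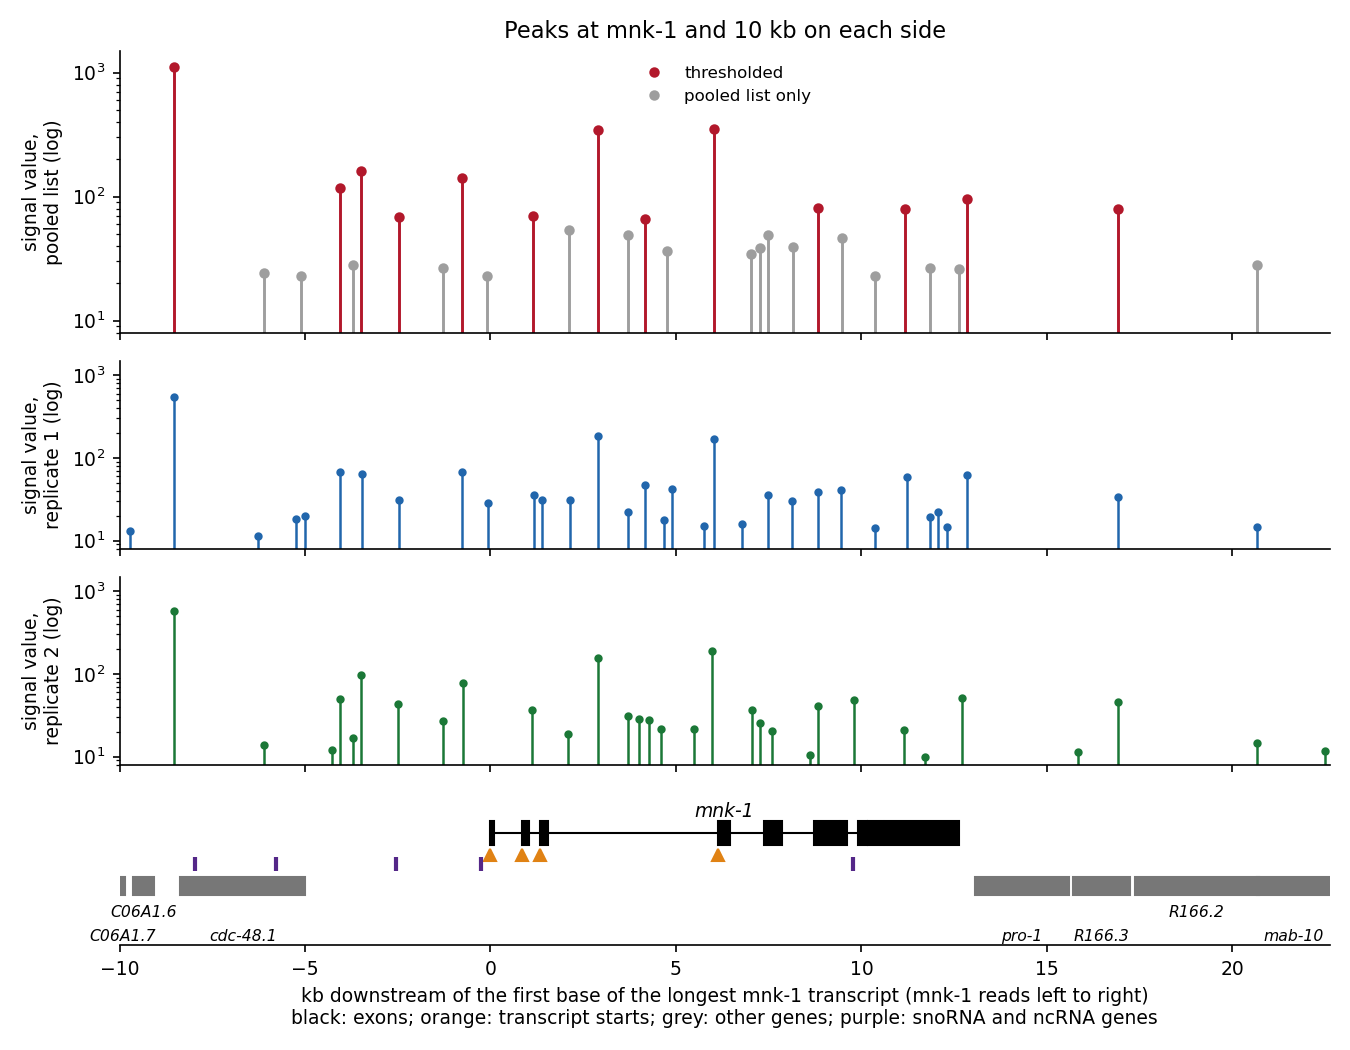
Signal value (log axis) of each peak against distance in kb from the start of the longest mnk-1 transcript, with mnk-1 reading left to right, for the pooled list (red where thresholded, grey where not), replicate 1 and replicate 2; the lowest panel shows exons, transcript starts and other genes. The 2 tall peaks of the long intron (350.8 and 342.9) and the peak upstream of cdc-48.1 (1108) stand out in all 3 lists.

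The flanks held 7 further thresholded peaks, 5 on the upstream side and 2 on the downstream side. Between mnk-1 and its upstream neighbour cdc-48.1 lay 4 of them. The closest, at 10555801, was 757 bp upstream of R166.5b.1 and had a pooled signal value of 141.5 (67.1 in replicate 1, 76.7 in replicate 2). The peak at 10558547, 3503 bp upstream, reached 159.5 (63.1 in replicate 1, 96.9 in replicate 2), and the peak at 10559097, 4053 bp upstream, reached 116.9 (67.2 in replicate 1, 50.1 in replicate 2). The replicates therefore ordered those 2 neighbours differently. The weakest of the 4, at 10557519 and 2475 bp upstream, had a signal value of 68.6 (31.0 in replicate 1, 43.4 in replicate 2) and lay beside the annotated ncRNA R166.11 (10557565 to 10557644).

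The fifth upstream peak, at 10563588, lay 181 bp upstream of cdc-48.1, which encodes an AAA ATPase that extracts proteins from complexes and membranes. It was the strongest peak of the whole experiment in every list, with a signal value of 1108 in the pooled list, 539 in replicate 1 and 571 in replicate 2. The whole of cdc-48.1 lies between this summit and mnk-1. On the downstream side, the summit at 10542199 lay 203 bp upstream of pro-1, with a signal value of 96.3 (62.2 in replicate 1, 51.4 in replicate 2). The replicate 2 summit, at 10542330, lay 131 bp from the pooled one. It was nearer, at 73 bp, to a weak pooled summit at 10542403, whose peak also held it and had no summit of replicate 1. The summit at 10538121 lay inside R166.3 and 450 bp upstream of R166.2, with a signal value of 80.1 (33.3 in replicate 1, 45.4 in replicate 2). The upstream side held more summits than the downstream side both in the thresholded list (5 against 2) and in the pooled list (10 against 4).

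Summits were closely spaced through the gene. Neighbouring pooled summits in mnk-1 were a median of 673 bp apart, with a range of 228 to 1262 bp, against a median of 3388.5 bp over the whole pooled list. Of the 15 neighbouring pairs of pooled peaks in mnk-1, 2 overlapped. Neighbouring thresholded summits in the gene were a median of 1870 bp apart (1255 to 2795 bp), against 17449 bp over the whole thresholded list. Per kb of gene this came to 0.475 thresholded summits in mnk-1 against 0.0271 per kb of genome, and to 1.27 pooled summits against 0.135. The replicate lists gave 1.58 per kb in mnk-1 against 0.190 per kb of genome in replicate 1, and 1.35 against 0.221 in replicate 2. These densities restate the choice of the locus.

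The threshold separated peaks by signal value, with almost no gap over the whole list and a wider one in mnk-1. All 2719 thresholded peaks are rows of the pooled list, of which they are 20.1%, and the lowest had a signal value of 54.89 against 54.87 for the highest pooled peak left out. Of the pooled peaks of mnk-1, 6 of 16 were thresholded, and of the region 13 of 30. Just inside in mnk-1 was the peak at 10550887, at 66.3. Just outside was the intronic peak at 10552939, with a pooled signal value of 53.8 (rank 2820), 31.3 in replicate 1 and 18.9 in replicate 2. Next came the coding exon peak at 10547554 and the intronic peak at 10551338, both at 48.9, and the coding exon peak at 10545572, at 46.0. The pooled peaks of mnk-1 had a median signal value of 48.9, against 30.6 over the pooled list.

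The replicates agreed on the thresholded members of the region and less on the weaker ones. All 13 thresholded peaks held a summit of both full replicate lists (100%, exact Clopper-Pearson 95% interval 75.3 to 100%, which covers the counting of peaks only). Over all thresholded peaks this share was 99.3%, and the thresholded list was itself derived from both replicates. Among the 2719 strongest peaks of each replicate, both replicates had a summit in 11 of the 13, against 73.0% of all thresholded peaks. The exceptions were the 3′ UTR peak at 10543859 and the intronic peak at 10550887, both outside the 2719 strongest of replicate 2. Replicate summits lay within 50 bp of each other in 10 of the 13, against 75.4% of the 2700 thresholded peaks found in both, with a median distance of 31 bp in the region and 23 bp overall.

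Of the 30 pooled peaks of the region, 20 held summits of both replicates, 5 of replicate 1 only and 5 of replicate 2 only. In mnk-1 itself these counts were 11, 3 and 2 of 16. Over the whole pooled list, 64.6% held both. Holding both does not place the summits together: in the mnk-1 peak at 10550279 they lay 123 bp and 182 bp to either side of the pooled summit. Where pooled peaks overlap, a single summit could also count for each, as that of replicate 2 at 10542330 did. Across the 20 peaks of the region found in both, the signal values of the replicates had a Spearman rho of 0.82, against 0.69 across the 8764 such peaks of the pooled list. Thresholded peaks made up 13 of the 20 but 2700 of the 8764, so the 2 sets differ in make-up and their rho values are not directly comparable. These correlations are across peaks that share their libraries and are a description only.

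**Figure D2:**
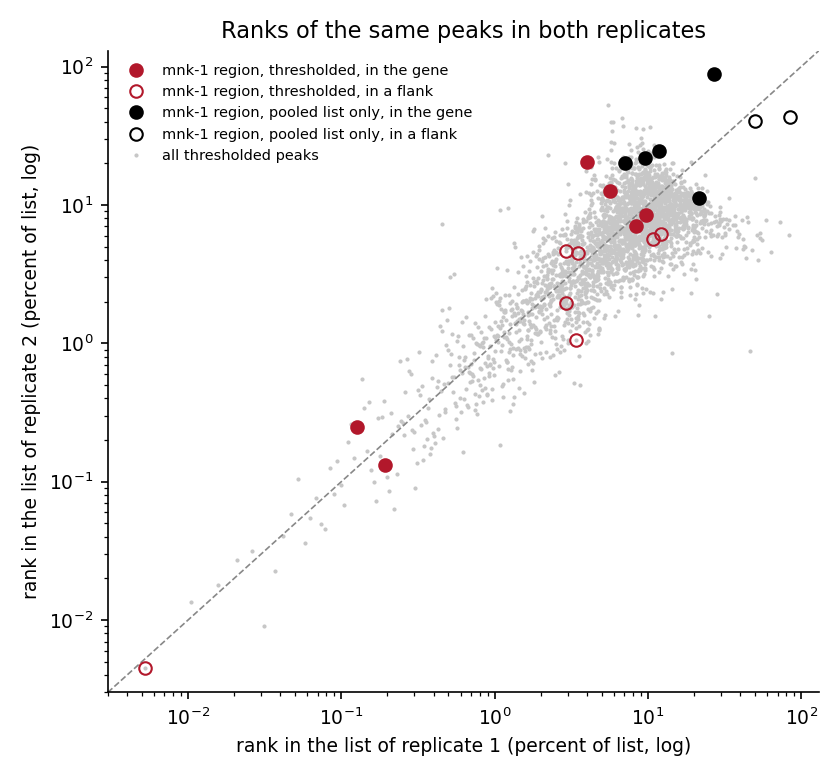
Rank of each peak in the list of replicate 2 against its rank in the list of replicate 1 (percent of each list, log axes, strongest at lower left), for peaks of the mnk-1 region found in both replicates and, in light grey, for all thresholded peaks found in both; the dashed line marks equal ranks. The strongest peak and both tall intronic peaks lie near the line, and the 3′ UTR peak at 10543859 lies well above it.

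Several summits were seen in a single replicate. The most prominent was in replicate 2, at 10545253, with a signal value of 47.9 (rank 1141). It lay within the snoRNA gene R166.7 (10545199 to 10545329), which sits in the intron of 294 bp from 10545142 to 10545435. It fell in no pooled peak, and no summit of replicate 1 lay in that intron. The neighbouring pooled peak at 10545572 had a summit of replicate 1 only, at 10545596 with a signal value of 40.6. Replicate 1 also had a summit at 10546911 with a signal value of 30.4 in a pooled peak without one of replicate 2. In turn, the pooled peaks at 10548028 and 10547782 held summits of replicate 2 only, with signal values of 36.6 and 25.5.

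The count of 6 rests on the authors' threshold over both replicates, and single replicates gave more. When each replicate's 2719 strongest peaks were counted instead, mnk-1 held 12 summits in replicate 1 and 7 in replicate 2, and the region held 20 in replicate 1 and 14 in replicate 2. The intronic snoRNA summit is among the 7 of replicate 2. Replicate 1 thus gave mnk-1 more of its strong peaks than replicate 2 did, and the cause was not tested.

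Set beside other genes, mnk-1 was among the genes with the most peaks, but it was the densest only under a condition on count. Of 19985 protein-coding genes, 3.29% had a thresholded summit within the gene and 0.03%, 6 genes, had 6 or more. T28B11.1 and ppfr-1 had 8 each, scd-1 had 7, and mnk-1, zfp-1 and lin-14 had 6 each. By pooled summits mnk-1 had rank 6, with 16, a count it shares with scd-1, behind daf-16 with 20, T28B11.1, vhp-1 and kin-1 with 18 each and lin-14 with 17. Per kb of gene, 98 genes exceeded mnk-1, of which 92 had only 1 or 2 summits, and the longest of the 98 spans 7347 bp. Among the 48 genes with 3 or more summits mnk-1 had rank 7 per kb, after W06H8.6, dnj-20, nhr-19, mef-2, mstr-1 and pck-2. Among the 20 genes with 4 or more its rank was 4, and among the 10 with 5 or more its rank was 1. Counted in the strongest peaks of single replicates, mnk-1 ranked 1 in replicate 1, with 12. In replicate 2 it ranked 2 with 7, tied with T28B11.1 and ppfr-1, behind scd-1 with 8.

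The genes most like mnk-1, taken as those with as many thresholded summits or more and the 4 next, differed from it in where their peaks lay. They were T28B11.1, ppfr-1, scd-1, zfp-1, lin-14, ZK470.2, Y111B2A.12, hlh-30 and pqn-41. In all 9 every thresholded summit was intronic, from 5 of 5 in hlh-30 to 8 of 8 in T28B11.1, against 4 of 6 in mnk-1. All 9 were longer than mnk-1, from 12.690 kb in ZK470.2 to 33.613 kb in pqn-41, against 12.624 kb. Their densities ran from 0.149 per kb in pqn-41 to 0.406 per kb in zfp-1, against 0.475 per kb in mnk-1. The highest signal value in mnk-1 was 351, which only Y111B2A.12 exceeded, at 363. The median of the 6 peaks of mnk-1, 79.9, was below that of all of them except lin-14, at 77.6. Thresholded summits within 300 bp upstream of an own start numbered 2 in mnk-1, against 1 in scd-1, 1 in hlh-30, which encodes a bHLH factor of autophagy genes, and 0 in each of the others. Those others include lin-14, which encodes a nuclear protein that times larval development, and zfp-1, which encodes a zinc finger protein of chromatin. Since the locus was chosen by its peaks, none of these differences was tested.

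**Figure D3:**
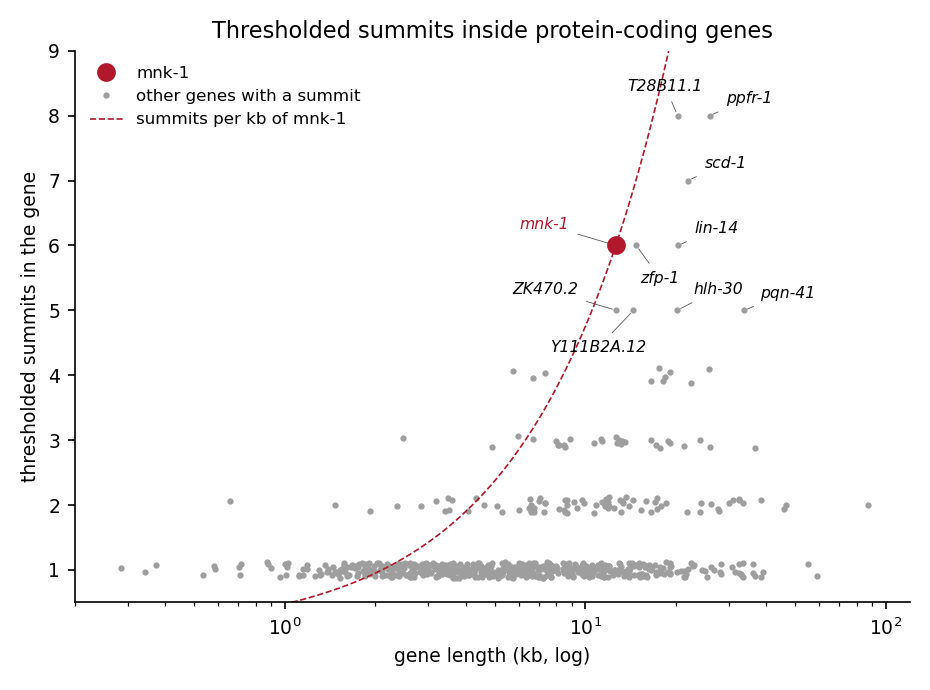
Thresholded summits inside each protein-coding gene with at least 1 against gene length in kb (log axis), with mnk-1 in red, other genes as grey points (counts below 5 moved slightly up or down at random so that points can be seen) and a dashed curve at the 0.475 summits per kb of mnk-1. Genes left of the curve are denser than mnk-1, and those are short genes of at most 7347 bp with at most 4 summits.

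A list of 29 genes was examined, all of which were matched. It holds selected kinases of the ERK, p38 and JNK cascades, and is not a full account of them. It also holds other kinases that act below MAP kinases or on ribosomal protein S6, and factors of cap-dependent translation. Of these, only the ERK and p38 cascades are named above as activators of MNK kinases. A thresholded summit lay in the gene or within 1 kb upstream in 12 of the 29 (41.4%), against 10.6% of all protein-coding genes. In the gene body alone the share was 13.8%, against 3.29% of all protein-coding genes, so most of the 12 were reached through upstream summits. With the pooled list it was 79.3%, against 36.3% of all protein-coding genes. The list was chosen with earlier results of these data known, and pmk-2 and pmk-3 were counted through the same summit. The list's share is a description and was not tested.

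Of the MAP kinases themselves, mpk-1, the ERK orthologue, had the strongest peak of the list, with a signal value of 240 (104 in replicate 1, 135 in replicate 2). That summit lay inside the gene and 4194 bp upstream of its nearest own transcript start. A strong internal peak is not particular to mpk-1 and mnk-1, since Y111B2A.12 (363) and zfp-1 (245), outside this list, had such peaks too. The JNK-like kinase gene kgb-1 had a summit 558 bp upstream with a signal value of 117 (45.4 in replicate 1, 61.9 in replicate 2). The p38 genes pmk-2 and pmk-3 shared 1 summit of 58.4 (18.6 in replicate 1, 39.5 in replicate 2), just above the threshold, while pmk-1, the third p38 gene, and jnk-1 had no thresholded summit.

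Upstream in the cascades, mlk-1, which encodes a MAP kinase kinase kinase, had a summit 241 bp upstream with a signal value of 150 (66.8 in replicate 1, 81.9 in replicate 2). The MAP kinase kinase genes mek-1 and sek-3 had weaker ones, with signal values of 77.7 and 65.3. No thresholded summit was found at mek-2, sek-1, jkk-1, nsy-1 or lin-45. Among kinases that MAP kinases activate, mak-1 had 2 summits in the gene, its best peak at 97.0 and 539 bp upstream of its nearest start (48.7 in replicate 1, 49.7 in replicate 2). Its relative mak-2 had a summit 469 bp upstream at 85.3 (40.9 in replicate 1, 36.1 in replicate 2). None was found at rskn-1 or rskn-2, of the RSK family, or at rsks-1, the S6 kinase gene.

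On the side of translation, 1 of the 5 cap-binding protein genes had a thresholded summit. This was ife-2, with a summit 199 bp upstream and a signal value of 75.1 (44.0 in replicate 1, 31.9 in replicate 2), while ife-1, ife-3, ife-4 and ife-5 had none, and neither did ifg-1, the scaffold gene, nor inf-1, the helicase gene. The poly(A)-binding protein genes pab-1 and pab-2 had summits 6 bp and 156 bp upstream of their starts, with signal values of 105 (49.2 in replicate 1, 55.5 in replicate 2) and 132 (77.5 in replicate 1, 53.7 in replicate 2). The genes with the highest values in mnk-1 and in this list were mnk-1 at 351 and mpk-1 at 240, both inside the gene.

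Short motifs were counted near the summits. Windows of 50 bp on each side of a summit were searched on both strands for AGGTCA (a nuclear receptor element), TGATAA (read by factors of the GATA family), CACGTG (the E-box of bHLH factors), the repeat GAGAGA, the GC-rich word GGGCGG, the AP-1 site TGACTCA and TTCTAGAA (heat shock factor), none of which contains another. At least 1 of the 7 was present in 4 of the 13 thresholded peaks of the region and in 3 of the 6 inside mnk-1, against 46.0% of all thresholded windows, and no difference was tested. AGGTCA was in none of the 13 windows, against 2.65% of all, but in 2 of the 13, against 6.36% of all, when 100 bp on each side were searched. GAGAGA was in 1, the intronic peak at 10552142 where it occurred at 2 places, against 30.4% of all. CACGTG was in 2 (5.99% of all), the flanking peak at 10558547 and the coding exon peak at 10546222. GGGCGG was in 2 (5.59% of all), the same flanking peak and the 3′ UTR peak at 10543859. TGATAA was in 1, the same coding exon peak (7.17% of all), and TGACTCA and TTCTAGAA were in none (1.36% and 0.699% of all). A run of 6 A was in 4 of 13, against 21.4% of all. A match is a description of letters and not of binding.

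The base composition of the windows ranged widely. Under the tall peak at 10549017 the window was 61.4% G and C, the highest of the 13, and under the peak at 10542199 it was 24.8%, the lowest. The median was 44.6% over the 13 and 46.5% over all thresholded windows, while the whole mnk-1 gene had 40.3%. Little of the locus is repeated sequence: only 0.0953% of the 30-base words of mnk-1 occur more than once in the genome. No repeated word of 30 bases lay in any of the 13 thresholded peaks, and 27 of the 30 pooled peaks had none, so reads of at least that length from the thresholded peaks have a single exact place in the genome.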

How the data were processed

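Peaks were taken from the authors' deposited lists in build ce11 (narrowPeak format). Column 7 is the signal value, a score of the authors' peak caller whose scale the files do not state. The deposited −log10 q value was not used to rank, since 1675 pooled peaks share its maximum. Per the deposited descriptions, pooled peaks came from the alignments of both replicates together, and thresholded peaks from an irreproducible discovery rate step over the pooled and replicate lists. Aligner, caller and cut-off: not given in the sources used here. No other columns of samples were left out.

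Summits were counted from 1 and assigned to genes of the Ensembl annotation of WBcel235 (coding exon, UTR or intron of mnk-1, else flank). Introns of mnk-1 were the gaps between the merged exons of its transcripts. A replicate supported a peak when its summit lay in the peak's interval. The exact Clopper-Pearson interval used a level of 95%. The counting functions were tested on simulated peaks. Python 3.11.15, pandas 2.3.3, NumPy 2.4.6 and SciPy 1.17.1 were used. Named genes were those with as many thresholded summits as mnk-1 or more, the next 4, the denser genes with at least 3, and the pathway list. The locus, lists, motifs and rules were chosen with earlier results of these data known, and CTNCGTNTC was noticed in the windows themselves. No test between groups was made, because 1 group was measured and the locus was chosen by its peaks.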

Additional observations from a re-analysis of the deposited data

How the results depend on the processing

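In all, 42 alternative values were computed, 1 of them chosen after seeing the data, and 29 stayed within 1.5 times the reported count or within its interval. With the stronger 1360 thresholded peaks alone, mnk-1 kept 2 summits and the region 7. Leaving out each replicate gave 7 to 12 summits in mnk-1, 14 to 20 in the region, a rank of 1 to 2 by count and of 25 to 69 per kb. Rank by count was 2 with 1 kb added on each side of every gene. Windows of 100 bp on each side held a motif in 9 of the 13 peaks (68.3% of all thresholded peaks), with AGGTCA in 2 (6.36% of all) and GAGAGA in 4 (47.6% of all). The pathway share was 13.8% within genes alone (3.29% of all protein-coding genes) and 79.3% with the pooled list (36.3% of all). The causes of these shifts were not tested. In build ce10 all 30 pooled summits lay at the same distances from the strongest peak, and the counts were equal. No paired analysis was possible because the results come from no test between groups. Unknown depth and a signal scale that is not stated limit every comparison of heights.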

Other observations

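A pattern was noticed in the printed windows after they were seen. The letters CTNCGTNTC, in which N is any base, occurred on either strand in 3 of the 13 thresholded peaks of the region: both tall intronic peaks of mnk-1, at 10549017 and 10552142, and the flanking peak at 10558547, which holds it at 2 places. In the peak at 10552142 it overlaps a GAGAGA match. The same pattern was in 12.5% of all 2719 thresholded windows, in 19 of the 100 strongest and in 3.73% of the 10839 pooled windows outside the thresholded list. It was absent from the window of the strongest peak, upstream of cdc-48.1. The pattern was written to fit these windows, so its count in the region carries no test.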
